A study of Mus musculus with 6 samples.

Results

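The MEF2, SIX-family and EYA transcription factors of muscle were measured in sorted mouse muscle stem cells of young and adult animals. They were represented by 9 genes, Mef2a, Mef2b, Mef2c, Mef2d, Six4, Six5, Eya1, Eya2 and Eya4, taken as every non-control array probe that carried exactly one of these names. This gave 12 probes among 55681 probes for 36406 gene names. Of the 9 genes, 6 had 1 probe and 3 (Mef2a, Mef2b and Mef2d) had 2 probes. All 12 probes were well above background on enough arrays to be tested, and 11 of them on all 6 arrays.

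The cells were satellite cells, which lie dormant beside the muscle fibre and rebuild it after injury. They came from male C57BL/6 mice, for which the labels name no mutation or treatment. Sorting gated on integrin alpha7 and CD34 as positive markers, and the surface proteins Sca1, CD11b, CD45 and CD31 as negative ones. The young group held 3 samples, from mice of 3, 2 and 3 months for replicates 1, 2 and 3, and the adult group held 3 samples, all from mice of 6 months. The young group thus mixes 2 ages, and the labels call the samples biological replicates without saying how many mice were pooled in each. RNA from the small numbers of cells was amplified over the whole transcriptome, and each sample was hybridised to 1 single-colour array, all on 1 slide.

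MEF2 proteins are MADS-box factors that bind A/T-rich sites in muscle promoters and act together with the MyoD family. Class IIa histone deacetylases hold them inactive, and calcium and p38 signals release them. SIX-family proteins are homeodomain factors that bind MEF3 sites, and EYA proteins are phosphatases without a DNA-binding domain of their own that SIX-family proteins bring to the promoter. In muscle precursors these families meet on the promoter of Myog, which encodes myogenin, the factor that commits a myoblast to terminal differentiation. The series concerns the ageing of muscle stem cells, and its samples here set adult against young ones.

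The promoter stretches of Myog and Six4 are printed here, because the families are known to meet at Myog and because Six4 holds the same MEF3 letters. They are from RefSeq on build GRCm38.p6, 5′ to 3′ on the gene's strand, and end at the base before the start site. Capitals mark the MEF3 motif, searched as TCAGGTTTC on both strands, and in Myog also its MEF2 site, searched as CTATATTTA on both strands; the motifs do not overlap.
Myog, chr1:134289754-134290003, plus strand: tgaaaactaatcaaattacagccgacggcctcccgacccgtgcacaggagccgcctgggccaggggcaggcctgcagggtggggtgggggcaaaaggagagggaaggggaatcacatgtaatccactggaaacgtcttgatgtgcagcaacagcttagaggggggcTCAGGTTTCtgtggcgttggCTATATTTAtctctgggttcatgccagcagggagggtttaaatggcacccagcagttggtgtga
Six4, chr12:73113246-73113495, minus strand: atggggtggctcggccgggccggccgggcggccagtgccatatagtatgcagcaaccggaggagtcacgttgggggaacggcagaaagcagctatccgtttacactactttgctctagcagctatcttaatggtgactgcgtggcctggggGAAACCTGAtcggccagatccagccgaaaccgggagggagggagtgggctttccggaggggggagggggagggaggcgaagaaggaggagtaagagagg
In Six4 the motif lies on the opposite strand, so it reads GAAACCTGA, from base -99 to -91 counted from the start site. In Myog the MEF3 motif runs from -84 to -76 and the MEF2 site from -64 to -56.

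The window searched was 250 bases before to 50 bases after the start site. RefSeq promoters were matched for 7 of the 9 genes, with 11 promoters in all; Eya1 and Eya2 had no entry. The MEF3 letters occurred in 141 of 32851 promoters (0.429%) and, among the 9 genes, in 1 of the 2 start sites of Six4. The Myog MEF2 letters occurred in 64 promoters (0.195%) and in none of the 11, and MEF3 and the Myog MEF2 letters together in 2 promoters, Myog's included. Another MEF2 consensus, which the Myog MEF2 site does not match, was found in 1047 promoters (3.19%). Among the 9 genes the only match to it was Mef2a's, from -2 to 8. A match of letters is a description of these windows and not evidence that a factor binds there.

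Values are log2 processed signals relative to the 75th percentile of their array, so 0 is the level that 75% of that array's probes do not exceed. A difference is the adult mean minus the young mean, and positive means higher in adult. Differences were tested with limma across all 48409 probes that were well above background on at least 3 arrays, with Benjamini-Hochberg adjusted p-values and a threshold of 0.05. Between 41526 and 45923 probes were well above background on the young arrays and between 47552 and 49954 on the adult arrays, and the median difference over all probes tested was 0.29.

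Only Mef2c passed the test among the 12 probes, and it was higher in adult cells by a factor of 3.18. No probe passed in the lower direction, and 11 did not pass. Over all probes tested, 23.5% were called in either direction, 17.1% higher and 6.39% lower, so 1 called probe of 12 is not above that background. The probes were split evenly, with 6 positive and 6 negative differences and a median difference of 0.01. At an unadjusted p under 0.05, 2 of the 12 probes passed, Mef2c and Six4. Young and adult values did not overlap for 4 probes, of which 3 were higher in adult (Mef2c, Eya2 and the brighter Mef2a probe) and 1 was lower (Six4). Over all probes the groups did not overlap for 52.6%, 32.1% higher and 20.5% lower.

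**Figure D1:**
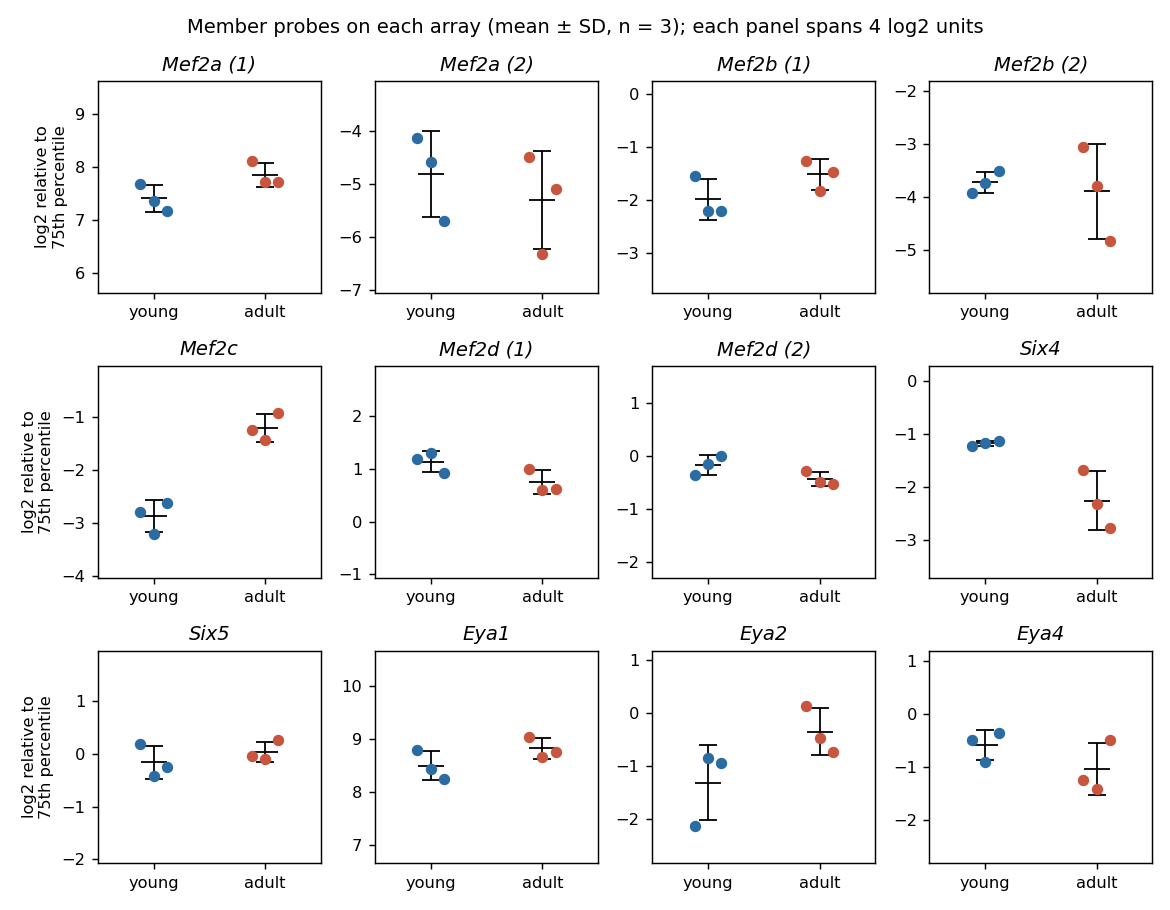
Log2 signal relative to the array's 75th percentile (vertical axis) for each of the 12 probes on the 3 young arrays (blue) and the 3 adult arrays (red); the bars are the mean ± SD (n = 3), every panel spans 4 log2 units, and (1) and (2) mark the brighter and dimmer probe of a gene. The groups stand apart for Mef2c, Six4, Eya2 and the brighter Mef2a probe.

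Mef2c encodes the MEF2 factor needed for the integrity of muscle fibres and for heart development, and it is also known in B lymphocytes, endothelium and smooth muscle. Its probe, A_55_P2155620, read -2.79, -3.21 and -2.63 in young replicates 1, 2 and 3, against -1.26, -1.44 and -0.93 in the adult replicates 1, 2 and 3. The lowest adult value lay above the highest young value, and the 2 groups had a like spread. The mean was -2.88 ± 0.30 (SD, n = 3) in young cells and -1.21 ± 0.26 (SD, n = 3) in adult cells. The difference of 1.67 ± 0.25 (SE) had a 95% confidence interval of 1.06 to 2.28 and an adjusted p of 0.0207 in limma. The adult level too stayed below the 75th percentile of the array.

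The Mef2c probe lies on chr13 between 83772788 and 83775025 on the plus strand of build mm9. Its 60 bases are spread over 2238 bases of the genome, so it crosses a splice junction of the transcript, starting at base 1104 of it. It is the single probe by which Mef2c was read, and it is shown for that reason.
Mef2c probe: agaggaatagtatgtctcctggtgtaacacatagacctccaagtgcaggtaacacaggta
It shared no run of 20 or more bases with a probe of another gene. No other probe carried the name Mef2c, so its difference has no second probe to set beside it.

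The Mef2c call was lost when some arrays were left out. The adjusted p in limma was 0.0544 without young replicate 1, 0.0634 without adult replicate 1, 0.0573 without adult replicate 2 and 0.07 without adult replicate 3, while the difference stayed between 1.502 and 1.791 over all 6 omissions. In the authors' series matrix the difference was 0.84, with an adjusted p of 0.0216 in limma. The difference passed in 14 of 19 alternatives and was positive in all 19. The median difference changed with the level of the probes. Within 0.5 log2 units of a probe it was 1.72 around the dimmer Mef2a probe and 1.08 around the dimmer Mef2b probe. It was lowest, at -0.33, around the brighter Mef2d probe, and positive again around the bright Eya1 (0.36) and Mef2a (0.44) probes. Of the 7258 probes equally close to the Mef2c level, the median difference was 0.40, 18.1% were called higher and 13.8% had a difference at least as high as that of Mef2c.

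**Figure D2:**
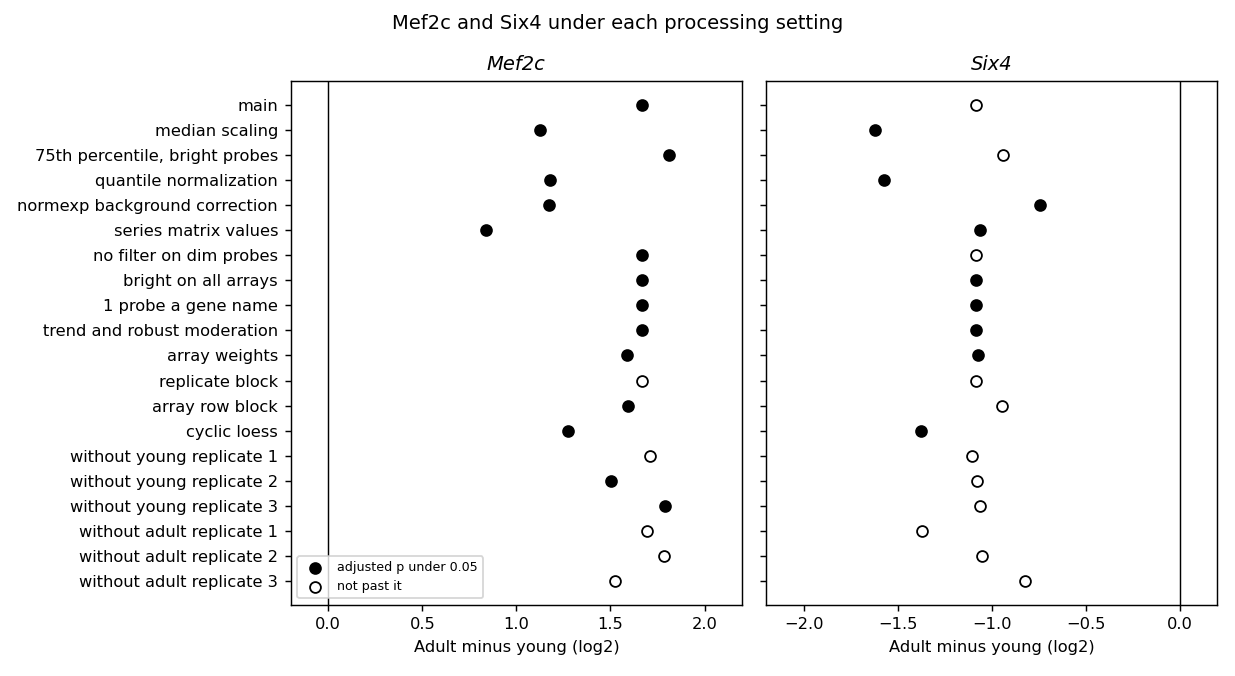
Adult minus young difference (log2, horizontal axis) of Mef2c (left) and Six4 (right) with the reported processing (top row) and under 19 alternatives; filled points had a limma adjusted p under 0.05 and open points did not. Mef2c lies between 0.84 and 1.81 and Six4 between -1.62 and -0.74, so neither crosses 0.

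Myog moved the other way by a larger amount. Its probe read 1.40, 1.15 and 1.73 on the young arrays and -4.13, -3.41 and -3.91 on the adult arrays, with no overlap. The difference of -5.24 ± 0.28 (SE) had an adjusted p of 0.00894 in limma. Myog, which MEF2 and SIX-family factors are known to switch on, was thus lower in the adult samples, where Mef2c was higher. Whether both differences arose in the same cells was not tested. The rise of Mef2c and the fall of Myog were both known when these genes were chosen, so their p-values describe these arrays and are no independent support for either.

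Mef2a encodes the MEF2 factor that prevails in mature muscle and heart. Its brighter probe, A_55_P1985159, on chr7 from 74379575 to 74379634 (mm9, minus strand), read 7.68, 7.36 and 7.17 on the young arrays and 8.11, 7.71 and 7.71 on the adult arrays. The adult values lay just above the young ones. The difference of 0.44 ± 0.23 (SE) did not pass, with an adjusted p of 0.185 in limma and an interval of -0.13 to 1.01. The dimmer probe, A_65_P08239, on chr7 from 74378751 to 74378810, read -4.14, -4.58 and -5.71 on the young arrays and -4.49, -6.32 and -5.10 on the adult arrays, and was well above background on 2 of 3 arrays in each group. Its difference of -0.49 ± 0.60 (SE) had an adjusted p of 0.538 in limma. The probes thus differed in sign, by 0.94, but an exact two-sided permutation test of that gap over the 6 arrays gave p = 0.3, where 0.1 is the smallest p the design allows.

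Mef2b encodes the family member least tied to muscle and best known from germinal-centre B cells. Its 2 probes have different sequences, shown here because their differences had opposite signs.
Mef2b A_55_P1963232: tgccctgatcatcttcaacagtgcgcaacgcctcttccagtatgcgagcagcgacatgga
Mef2b A_55_P1959784: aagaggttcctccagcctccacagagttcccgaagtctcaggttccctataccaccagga
The first lies on chr8 from 72689021 to 72689080 (mm9, plus strand) and the other downstream of it, from 72691191 to 72691250. The downstream probe read -1.55, -2.22 and -2.22 on the young arrays and -1.26, -1.83 and -1.47 on the adult arrays, so the groups overlapped. Its difference was 0.47 ± 0.28 (SE), with an adjusted p of 0.229 in limma. The upstream probe read -3.92, -3.73 and -3.52 on the young arrays against -3.06, -3.79 and -4.83 on the adult arrays, which spanned a wider range than the young ones. It differed by -0.17 ± 0.46 (SE), with an adjusted p of 0.782 in limma. The gap between the probes was 0.65 (exact two-sided permutation test, p = 0.4). That test cannot give a p below 0.1 here, so it cannot settle whether the probes differ.

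Mef2d encodes a MEF2 factor present from the myoblast stage on, whose muscle splice form takes part in differentiation. Its probe A_51_P504672 crosses a splice junction, its 60 bases covering 347 bases of chr3 from 87972214 to 87972560 (mm9, plus strand).
Mef2d A_51_P504672: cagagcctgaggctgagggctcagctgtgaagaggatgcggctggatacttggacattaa
It read 1.190, 1.298 and 0.913 on the young arrays and 1.001, 0.606 and 0.619 on the adult arrays, an overlap made by adult replicate 1. The difference was -0.39 ± 0.22 (SE), with an adjusted p of 0.206 in limma. The second probe, A_55_P1966958, a little downstream on chr3 from 87972971 to 87973030, read -0.37, -0.14 and 0.00 on the young arrays and -0.29, -0.50 and -0.53 on the adult arrays. Its difference was -0.27 ± 0.20 (SE), with an adjusted p of 0.321 in limma. Here the probes had the same sign and their differences lay 0.12 apart (exact two-sided permutation test, p = 0.6, where 0.1 is the smallest p the design allows). With each array scaled to its median, which moved the median of all probes from 0.29 to -0.25, both passed, at adjusted p-values of 0.0263 and 0.0401 in limma.

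Six4 encodes a SIX-family factor that takes part in the formation of embryonic muscle. Its probe, A_55_P2041095, on chr12 from 74201246 to 74201305 (mm9, minus strand), read -1.22, -1.16 and -1.13 on the young arrays and -1.68, -2.31 and -2.77 on the adult arrays. The young arrays lay close together, the adult arrays were spread, and the groups did not overlap. The mean was -1.17 ± 0.04 (SD, n = 3) in young and -2.25 ± 0.55 (SD, n = 3) in adult cells. The difference of -1.08 ± 0.31 (SE), with an interval of -1.83 to -0.33, had an adjusted p of 0.0508 in limma and missed the threshold narrowly.

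The Six4 difference passed in 9 of 19 alternatives and kept its sign in all 19. Its adjusted p in limma was 0.0193 with median scaling, 0.0458 with quantile normalization, 0.0303 with normexp, 0.0174 in the series matrix and 0.0438 with cyclic loess. It was also 0.0325 over probes bright on all arrays, 0.0455 with 1 probe a gene name, 0.0343 with a variance trend and 0.0418 with array weights. Over the omissions of 1 array it lay between 0.0633 and 0.119 in limma. Of the 7107 probes within 0.5 log2 units of its level, the median difference was 0.28, 3.79% were called lower and 97% had a difference at least as high as that of Six4.

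Six5 encodes the SIX-family factor whose gene lies beside Dmpk at the myotonic dystrophy locus. Its probe, A_51_P219385, on chr7 from 19683437 to 19683496 (mm9, plus strand), read 0.18, -0.42 and -0.26 on the young arrays and -0.04, -0.10 and 0.25 on the adult arrays. The groups overlapped broadly. The difference was 0.20 ± 0.24 (SE), with an interval of -0.38 to 0.78 and an adjusted p of 0.533 in limma. Its sign was opposite to that of Six4, but the difference between the 2 genes was not tested.

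Eya1 encodes an EYA coactivator that works with SIX-family factors in the muscle and ear of the embryo. Its probe, A_55_P2423586, on chr1 from 14159982 to 14160041 (mm9, minus strand), read 8.79, 8.44 and 8.25 on the young arrays and 9.04, 8.66 and 8.75 on the adult arrays. The highest young array lay within the adult range. The difference was 0.33 ± 0.23 (SE), with an adjusted p of 0.303 in limma. This probe holds an alternating GT run of 34 bases and shares 20 or more identical bases with 51 probes of other genes, the longest run being 36 bases. Whether other transcripts add to its signal was not tested. The brighter Mef2a probe holds a GT run of 10 bases, and the other 10 probes hold runs of at most 4. Among the 189 tested probes with a GT run of 10 or more, a set looked at after the values were seen, 90.5% had a mean above the 75th percentile, against 28% of all probes tested, and their median difference was 0.55.

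Eya2 encodes an EYA coactivator known to be expressed in limb muscle precursors. Its probe, A_55_P2141093, on chr2 from 165597072 to 165597131 (mm9, plus strand), read -2.13, -0.85 and -0.95 on the young arrays and 0.15, -0.46 and -0.72 on the adult arrays. Every adult value lay above every young value, and young replicate 1 was the lowest by far. The mean was -1.31 ± 0.71 (SD, n = 3) in young and -0.34 ± 0.45 (SD, n = 3) in adult cells. The difference of 0.97 ± 0.43 (SE) did not pass, with an adjusted p of 0.13 in limma. It was 0.55 without young replicate 1 and 0.43 with median scaling.

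Eya4 encodes an EYA coactivator known from the inner ear and the heart. Its probe, A_55_P2041529, on chr10 from 22824002 to 22824061 (mm9, minus strand), read -0.48, -0.90 and -0.35 on the young arrays and -1.24, -1.40 and -0.48 on the adult arrays. Adult replicate 3 fell within the young range. The difference was -0.46 ± 0.31 (SE), with an adjusted p of 0.283 in limma.

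**Figure D3:**
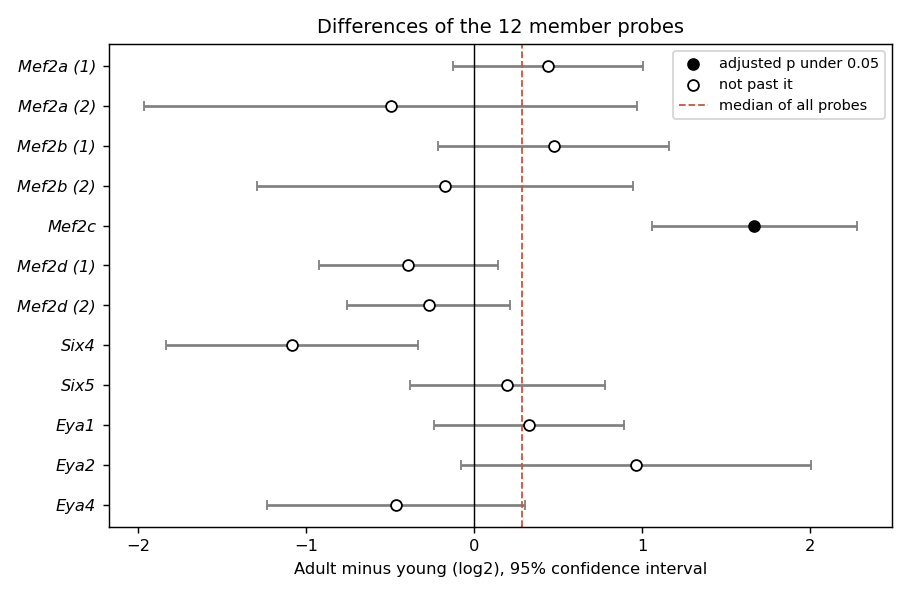
Adult minus young difference (log2, horizontal axis) of the 12 probes with 95% confidence intervals from limma; the filled point had an adjusted p under 0.05, open points did not, and the dashed line is the median of all probes tested. The intervals of Mef2c (1.06 to 2.28) and Six4 (-1.83 to -0.33) leave out 0, and the other 10 contain it.

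The genes whose values across the 6 arrays were most like those of a member were sought for the probe with the smallest p in each family, as the smallest root mean square difference between centred log2 values among 18091 probes. Mef2c was most like Mosc1 (0.12), Olfr220 (0.129) and Atp1b2 (0.142). Six4 was most like Polr2g (0.06), Rbm3 (0.078) and Pa2g4 (0.081), which encode an RNA polymerase II subunit, a cold-induced RNA-binding protein and a growth-regulating RNA-binding protein. Eya2 was most like Rab15 (0.174), Mill2 (0.196) and Chac1 (0.217). All these genes were picked for closeness, so they share the member's difference by selection, and a shared function was not tested.

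Genes around the families were taken as lists, each gene by its brightest probe. Of 24 cofactors and regulators of MEF2, 23 were tested, none was called higher and 1 was called lower, where 17.1% of all probes were called higher and 6.39% lower. This was Hdac4, a class IIa histone deacetylase that represses MEF2, which fell from 1.75 ± 0.09 to 1.04 ± 0.13 (SD, n = 3 each), a difference of -0.71 ± 0.18 (SE) with an adjusted p of 0.0425 in limma. The other class IIa genes of the list, Hdac5, Hdac7 and Hdac9, had positive differences of 0.20, 0.68 and 1.95 that did not pass. Hdac9 was well above background on only 1 young and 2 adult arrays. The Hdac4 call was lost with any 1 of the 6 arrays left out, at adjusted p-values of up to 0.107 in limma, and held in 7 of 19 alternatives, with a difference of -1.25 with median scaling and -0.45 with cyclic loess. The list's median difference was -0.41, with 6 positive and 17 negative values, beside 0.29 over all probes tested. Under 7 scalings its median stayed negative, between -0.95 and -0.22, and lay 0.17 to 0.70 below the median of all probes. That median was not matched to the level of the listed genes, and it changed with level. Against probes of like level Hdac4 differed by -0.35, and the list as a whole was not compared in this way. Tead1, which encodes a TEA-domain factor, differed by -0.12 at its brightest probe, while its other 2 probes were called lower, by -1.11 and -0.77. The p38 gene Mapk14 and the coactivator Ep300 had differences of -0.37 and -0.03, and the MEF2 coactivator Mamstr had one of -0.70 with an adjusted p of 0.0621 in limma.

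Of 14 relatives and cofactors of the SIX-EYA complex, 13 were tested and none passed in either direction by its brightest probe, beside 23.5% of all probes. Their median difference was -0.18, with 4 positive and 9 negative values. Eya3 differed by -0.47 ± 0.23 (SE), with an adjusted p of 0.165 in limma, and Dmpk, the neighbour of Six5, by -0.66 ± 0.20 (SE), with an adjusted p of 0.0586 in limma. At a dimmer probe Dmpk was called lower (-1.12, adjusted p 0.0248 in limma), and Pax3, a paired-box factor of muscle precursors, was called higher at its dimmer probe (0.96, adjusted p 0.0341 in limma) but not at its brightest (0.20).

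Of 26 muscle genes known as targets of MEF2 or SIX-family factors, 1 was called higher and 2 were called lower, together a smaller share than the 23.5% of all probes. Lmod3, a nucleator of thin filaments, rose from -2.47 ± 0.05 to -1.47 ± 0.10 (SD, n = 3 each), a difference of 1.005 ± 0.176 (SE) with an adjusted p of 0.0249 in limma. Stac3, a part of excitation-contraction coupling, fell from -0.50 ± 0.19 to -1.68 ± 0.35 (SD, n = 3 each), a difference of -1.18 ± 0.25 (SE) with an adjusted p of 0.0313 in limma. Myog was the other gene called lower. Actn2, an actin cross-linker of the Z-disc, was not called at its brightest probe (-0.10) and was called higher at its other one. Myod1, which SIX-family factors also drive, differed by -0.64 ± 0.23 (SE), with an adjusted p of 0.0803 in limma. The median difference of the list was 0.43, with 16 positive and 10 negative values, but its sign turned under scaling by the median (-0.11), quantile normalization (-0.35), the series matrix (-0.14) and cyclic loess (-0.34).

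The Lmod3 and Stac3 calls were less stable than the Myog call. Lmod3 lost its call without any of young replicates 1 and 3 and adult replicates 1, 2 and 3, at adjusted p-values of up to 0.0754 in limma, and its difference was 0.46 with median scaling, 0.50 with quantile normalization, 0.33 in the series matrix and 0.63 with cyclic loess. The call was lost in these 4 settings too, at adjusted p-values of 0.113, 0.104, 0.144 and 0.0585 in limma, and it held in 9 of 19 alternatives. Stac3 lost its call with any 1 of the 6 arrays left out, at adjusted p-values of up to 0.0846 in limma. Myog kept its call in all 6 omissions, with adjusted p-values of up to 0.0392 in limma.

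**Figure D4:**
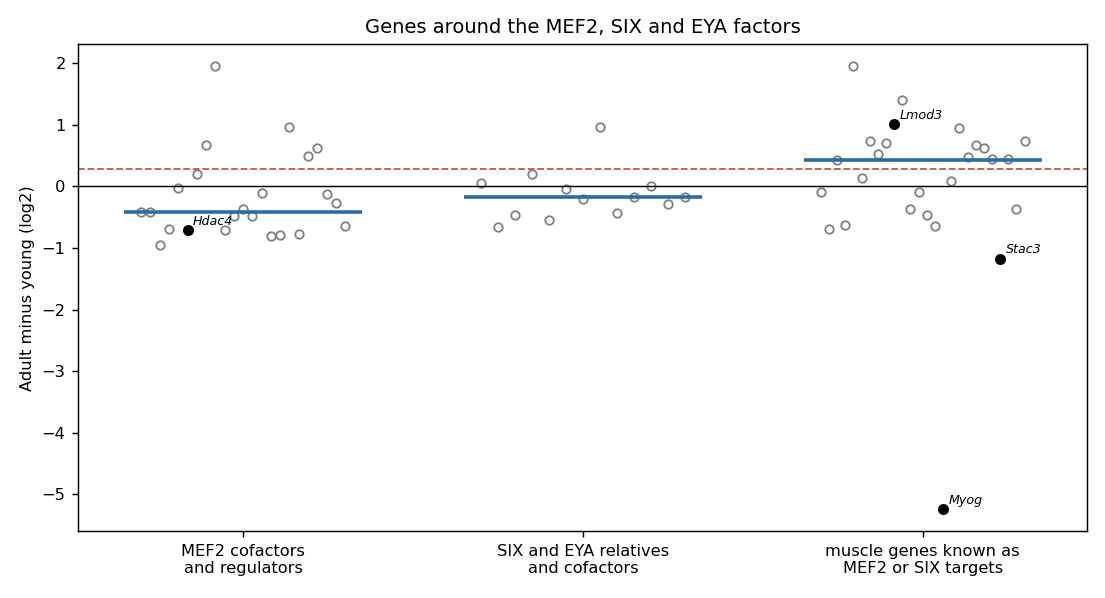
Adult minus young difference (log2, vertical axis) of each tested gene in 3 lists of genes around the factors; filled points with names had a limma adjusted p under 0.05, open points did not, blue bars are list medians and the dashed line is the median of all probes tested. Most MEF2 cofactors lie below the dashed line, which is not matched to their level, and Myog lies far below all others.

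The satellite cell markers were present in all 6 samples, Pax7 at 3.75 ± 0.27 in young and 3.41 ± 0.32 in adult cells (SD, n = 3 each). Of 15 such markers, 0 were called higher and 5 lower, where 17.1% of all probes were called higher and 6.39% lower, shares that bear on each list that follows. The shares were not matched to the level of the markers. Called lower were Itga7 (-1.08, adjusted p 0.0262 in limma), Megf10 (-1.04), Msc (-1.465), Vcam1 (-0.89) and Cdh15 (-1.115). Itga7 encodes integrin alpha7, a positive marker of the sort. Cd34, which encodes the other positive marker, did not pass (-0.18), nor did Pax7 (-0.34). The summed level of the satellite cell markers relative to the 75th percentile ranged from 218 to 238 on the young arrays and from 157 to 209 on the adult arrays. Markers of other cells moved as well, and Mef2c is known in several of these cells. Of 9 mural markers 5 were called higher and 1 lower, the summed level ranging from 65.2 to 83.0 in young and 72.9 to 79.2 in adult samples. Notch3 (-0.15, not passed) made up 60.1% to 74.5% of these sums, which without it ran from 18.6 to 24.1 in young and 19.7 to 29.5 in adult samples. The defining Kcnj8, Pdgfrb and Rgs5 were higher by 3.58, 2.13 and 1.87, with adjusted p-values of 0.013, 0.0273 and 0.0323 in limma, and Abcc9 and Higd1b by 2.37 and 2.00. Acta2 was lower, by -2.11 with an adjusted p of 0.00996 in limma, and Cspg4 (0.61) and Tagln (-0.04) did not pass. With 1 array left out, the Kcnj8 call held in 4 of 6 omissions (lost without adult replicates 1 and 3), the Pdgfrb call in 1 (without young replicate 2) and the Rgs5 call in 0, at adjusted p-values of up to 0.06, 0.0848 and 0.0971 in limma. Of 13 leukocyte markers tested 4 were called higher and none lower, with sums of 220.6 to 426.5 in young and 380.2 to 404.1 in adult samples; Itgam made up 95.4% to 97.4% of these sums, which without it ran from 9.35 to 11.1 and from 13.8 to 15.2. Tyrobp was not well above background on any young array and was so on all 3 adult arrays. Adgre1 and Cd79a were higher by 2.32 and 1.64 (adjusted p 0.0288 and 0.0314 in limma), while Ptprc (0.49), Cd3e (0.40) and Itgam (0.39) did not pass. Adgre1 held its call in 1 of 6 omissions (without young replicate 2) and 12 of 19 alternatives, and Cd79a in 0 of 6 and 8 of 19. In the series matrix they differed by 0.84 (adjusted p 0.0232 in limma) and 0.45 (adjusted p 0.19).

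Of 12 endothelial markers 1 was called higher and none lower, with sums of 19.8 to 31.0 in young and 20.3 to 28.6 in adult samples, and the defining Pecam1 (-0.81), Cdh5 (-0.29) and Kdr (-0.04) did not pass. The gene called was Flt1 (0.94, adjusted p 0.0305 in limma), and Erg (1.17), Esam (1.09) and Cldn5 (1.03) had positive differences that did not pass. Of 9 fibro-adipogenic markers tested 2 were called higher and 1 lower, among 4 positive and 5 negative differences. The sums ranged from 74.7 to 81.3 in young and from 29.7 to 44.9 in adult samples. Sums weigh bright genes most, and the brightest here, Col3a1, was the gene called lower (from 6.00 to 4.87). Pi16 and Clec3b were called higher, by 1.35 and 0.755. Pdgfra was not well above background on any array, and Ly6a (0.12) did not pass. Of 16 myofibre markers 1 was called higher and 5 lower, with sums of 39.7 to 56.3 in young and 21.9 to 28.1 in adult samples. The brightest, Atp2a1, weighs most in these sums and was called lower (from 4.96 to 3.86). Over the myofibre list 9 differences were positive and 7 negative, with a median of 0.06. The part of these cell types in the Mef2c difference was not tested, and in RNA from many cells, a change in the number of cells that express a gene and a change in RNA per cell cannot be told apart.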

How the data were processed

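Gene expression was measured on 1-colour Agilent arrays of 62976 spots. Per the file headers, the scans were quantified by Feature Extraction (version 10.7.3.1), and the deposited intensity values are the processed signal, mean signal and local background. The deposited series matrix holds log2 values with a median of 7.56 in each column; they equal a normexp correction (offset 50) with quantile normalization of the deposited intensities within 0.000106.

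Control spots (3671) and outlier flags were dropped and repeated spots averaged per probe; saturation did not occur. Log2 processed signals minus each array's 75th percentile entered limma (version 3.58.1, lmFit and eBayes, in R version 4.3.3, with the package data.table at version 1.17.8), with Benjamini-Hochberg adjustment over all probes tested. The fit was tested on simulated data with 200 changed probes. That simulation drew independent noise for each probe, with no shift shared by an array, so it does not cover the changes between settings. The number of arrays limits the precision, and where samples came from pooled or shared mice the p-values cover only the spread between these samples. All arrays shared 1 slide and scan. Alternatives covered scaling, background, filter, probe choice, variance model, weights, blocks and omitted arrays; comparison within probes of like level and cyclic loess were chosen after seeing the data.

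The 9 genes and the lists were chosen with earlier results of these data known. Named were all probes of the 9 genes, Myog, up to 4 genes per direction past the threshold in each pathway list, defining markers and the 3 genes most like the leading probe of each family. Other listed genes, and the GT runs, were picked after their values were seen. Positions are those of the files (mm9). One listed gene is not reported here.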

Additional observations from a re-analysis of the deposited data

How the results depend on the processing

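The count of all probes past the threshold was 11356 (8261 higher, 3095 lower) as reported, 7073 (3277 higher, 3796 lower) with quantile normalization, 17511 with normexp, 6544 with the array row as a block and 6315 (3493 higher, 2822 lower) with cyclic loess. The split was 4820 higher to 12214 lower with median scaling, 10322 to 2012 with the 75th percentile over bright probes and 5646 to 6059 in the series matrix. Of the 12 probes of the 9 genes, 1 was called as reported, 4 with median scaling, 3 with quantile normalization (Mef2c, Six4 and the dimmer Mef2a probe) and 2 (Mef2c and Six4) with normexp, the series matrix, the filter on all 6 arrays, 1 probe a gene name, a variance trend with robust moderation, array weights and cyclic loess. Of the pathway genes 4 were called as reported, 22 with median scaling, 18 with normexp, 11 in the series matrix, 12 with the filter on all 6 arrays, 9 probes of 8 genes when every probe was counted, 17 with the variance trend and 2 with the array row block. With 1 array left out, 388 to 10350 probes, 0 to 1 of the 12 probes and 1 to 3 pathway genes were called. Each omission left fewer arrays in the fit, yet the counts differed widely between omissions, from 388 without adult replicate 3 to 10350 without young replicate 2. The cause of these and of the other changes was not tested.

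With the replicate number as a block, limma called 0 probes in all, 0 of the 12 and 0 pathway genes, and 18046 probes and 2 of the 12 passed at an unadjusted p under 0.05; Mef2c had an adjusted p of 0.0639 in limma and Myog one of 0.0548. The labels do not say whether same-numbered samples were paired. The correlations of same-numbered deviations were -0.01, -0.09 and -0.13, which cannot settle this with 3 arrays a group.

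Over 224 tested alternative values of the 12 probes, 198 kept their direction and side of the threshold, 12 newly passed, 5 no longer passed (all of Mef2c) and 9 turned in sign without passing on either side. Against probes of like level, which gives no test, 10 of 12 kept their sign and 2 did not. The turns were Eya1 under median scaling (-0.21), quantile normalization (-0.044) and against probes of like level (-0.03), the brighter Mef2a probe under median scaling (-0.10) and against like level (0.00), the dimmer Mef2a probe under normexp (0.002) and without adult replicate 2 (0.014, with a range of -0.946 to 0.014 over the 6 omissions), the brighter Mef2b probe (-0.066) and Six5 (-0.34) under median scaling, and the dimmer Mef2b probe under normexp (0.023) and without adult replicate 3 (0.30, with a range of -0.591 to 0.297). Relative to the median of all probes, Mef2c lay between 0.88 and 1.38 and Six4 between -1.46 and -0.97 over 7 scalings. Signal over background limits the dimmer Mef2a probe, read well above background on 4 of 6 arrays.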

Other observations

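Some probes carry an accession for a name but are described in the files as Mef2d or Mef2a. They were found after the values were seen and are no part of the counts above. A Mef2d probe, A_51_P394676, on chr3 from 87975777 to 87975836 (mm9), downstream of both named probes, read 1.54, 1.47 and 1.54 on the young arrays and 1.89, 1.62 and 1.62 on the adult arrays. Its groups did not overlap and its difference was positive, 0.20 ± 0.18 (SE), with an adjusted p of 0.427 in limma, while both named Mef2d probes had negative differences. A Mef2a probe, A_52_P175157, on chr7 from 74376573 to 74376632, differed by 0.27 ± 0.31 (SE), with an adjusted p of 0.516 in limma, between the values of the named Mef2a probes. A further probe, A_52_P681016, is described as a predicted gene and not as Mef2c, and it too is no part of those counts. It lies on chr13 from 83741033 to 83741092, upstream of the Mef2c probe. It was well above background on 4 of 6 arrays and differed by 0.65 ± 1.12 (SE), with an adjusted p of 0.666 in limma.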
